A study of Mus musculus with 15 samples.

Results

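The Egr, Nr4a and Ier immediate-early genes were followed in ear RNA of mice that lack Socs3 in keratin 5-positive cells. The 10 genes were Egr1, Egr2, Egr3, Nr4a1, Nr4a2, Nr4a3, Ier2, Ier3, Ier5 and Srf. They were chosen by symbol, and each matched exactly 1 of the 21110 genes listed per library. No measured value was used as a rule for the choice, but earlier results of these data were known when it was made. The expression unit was FPKM, a density of fragments scaled by transcript length and by the mapped reads of the library. It allows levels to be compared between genes. Comparisons between mice also depend on how the libraries are scaled, as the summed FPKM ran from 436293 to 671904, and other scalings are given at the end.

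All 15 libraries came from C57BL/6 mice, 1 mouse each, and were prepared from total RNA of the ear. There were 4 wild type mice and 4 Socs3 cKO mice at 2 weeks of age, and 3 wild type mice and 4 Socs3 cKO mice at 10 weeks. Socs3 cKO denotes the libraries labelled as carrying the conditional knockout, in which Socs3 is deleted only where keratin 5 is expressed, that is in basal keratinocytes and related epithelium. The comparisons ask how loss of this inhibitor of cytokine signalling in keratinocytes changes the ear transcriptome early and late. The labels name no treatment, so the groups differ by genotype and age. They give keratinocytes as the source and ear as the tissue. The sample titles carry numbers that run in a separate range for each group, and in the wild type at 2 weeks replicate 1 stands apart from the others. The titles do not say what these numbers stand for. Any library batch therefore cannot be told apart from the group.

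Transcription of immediate-early genes begins quickly after a growth factor, cytokine, stress or injury signal and needs no new protein. Egr1, Egr2 and Egr3 encode zinc finger transcription factors that bind GC-rich sites and are held in check by the NAB corepressors. Nr4a1, Nr4a2 and Nr4a3 encode orphan nuclear receptors, Ier2 and Ier5 encode related nuclear proteins, and Ier3 encodes a small regulator of cell survival. Srf encodes serum response factor, which binds CArG boxes upstream of many immediate-early genes and of actin genes, together with ternary complex factors such as ELK1 and ELK4 or with myocardin-related cofactors. CREB, which binds TGACG half-sites, is a second well-known activator of Nr4a genes. In skin, this class of genes is known to respond to wounding.

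The stretches before the transcription start are shown for 5 genes, because these hold the letters that differ between the Nr4a genes on one side and Srf and Egr2 on the other. RefSeq promoter windows (GRCm38.p6, 250 bases before to 50 after the start) were matched for 7 of the 10 genes, namely Egr2, Nr4a1, Nr4a2, Nr4a3, Ier3, Ier5 and Srf, with 11 windows in all. The sequences lie at chr17:46556163-46556312 on the minus strand for Srf, chr10:67537719-67537868 on the plus strand for Egr2, chr15:101266596-101266845 on the plus strand for Nr4a1, chr2:57124004-57124253 on the minus strand for Nr4a2 and chr4:48045055-48045304 on the plus strand for Nr4a3. Each is written 5′ to 3′ and ends 1 base before the start, and capitals mark a CArG box or TGACG on either strand, the latter written CGTCA on the opposite strand.
Srf: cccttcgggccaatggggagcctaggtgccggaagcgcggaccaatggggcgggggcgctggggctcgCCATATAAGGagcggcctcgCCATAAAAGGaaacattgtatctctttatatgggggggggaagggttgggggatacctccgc
Egr2: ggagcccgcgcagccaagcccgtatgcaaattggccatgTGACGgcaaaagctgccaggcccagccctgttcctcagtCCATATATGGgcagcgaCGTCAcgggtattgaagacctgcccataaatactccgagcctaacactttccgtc
Nr4a1: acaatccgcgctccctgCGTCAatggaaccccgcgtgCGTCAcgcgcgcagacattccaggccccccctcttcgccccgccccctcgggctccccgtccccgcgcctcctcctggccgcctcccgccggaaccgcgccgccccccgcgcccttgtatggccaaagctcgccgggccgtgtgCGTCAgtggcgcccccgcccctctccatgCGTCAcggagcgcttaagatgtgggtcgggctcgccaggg
Nr4a2: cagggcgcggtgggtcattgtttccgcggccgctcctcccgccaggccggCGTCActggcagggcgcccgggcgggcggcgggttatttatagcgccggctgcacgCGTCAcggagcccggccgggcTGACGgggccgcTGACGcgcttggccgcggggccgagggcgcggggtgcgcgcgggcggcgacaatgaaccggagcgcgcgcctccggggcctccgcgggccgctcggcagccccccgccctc
Nr4a3: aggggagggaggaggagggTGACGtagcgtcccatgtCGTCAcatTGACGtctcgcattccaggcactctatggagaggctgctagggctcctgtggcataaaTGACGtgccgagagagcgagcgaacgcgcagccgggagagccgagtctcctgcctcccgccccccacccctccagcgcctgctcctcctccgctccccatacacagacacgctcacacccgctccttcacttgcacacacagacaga

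The Srf window held 2 CArG boxes, at -82 to -73 and at -62 to -53 from the start, and the Egr2 window shown held 1, at -72 to -63. A CArG box was present in 1.63% of all 32851 windows. The windows of Nr4a1, Nr4a2 and Nr4a3 each held 4 matches to TGACG and no CArG box. TGACG occurred in 20.8% of all windows, and 4 or more matches in 0.231%. The Egr2 window held 2 matches to TGACG and the Srf window held 1, farther upstream than the bases shown. The full CREB palindrome TGACGTCA, which contains TGACG, was in none of the 11 windows and in 1.79% of all. An EGR-type site, GCGGGGGCG, was in the windows of Nr4a1 and Srf and in 2.91% of all windows. The AP-1 site TGANTCA (7.81% of all windows), the STAT-type site TTCNNNGAA (8.3%), the EGR variant GCGTGGGCG (0.612%) and the NR4A site AAAGGTCA (1.51%) were in none of the 11. None of these letter strings was found in the windows of Ier3 or Ier5. Both strands were searched, and a match describes letters only.

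In mm9, the build of the deposited values, the genes lie apart from each other on 9 chromosomes except that Srf and Ier3 share chromosome 17. Ier2, at chr8:87185230-87186751, and Ier5, at chr1:156943497-156946766, have a single exon. Ier3 (chr17:35958629-35959868), Egr3 (chr14:70477252-70479964) and Egr2 (chr10:66998223-67004936) have 2 exons in their longest annotated transcript, as has Egr1. Nr4a1 (chr15:101097277-101105223) and Srf (chr17:46683788-46693111) have 7, and Nr4a2 (chr2:56959241-56976414) and Nr4a3 (chr4:48058025-48099319) have 8. In the annotation, Egr1 overlaps Gm17507 and Srf overlaps Gm16736. The library kit does not mark strand, so reads from these overlaps cannot be assigned to one gene.

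Mapped reads per library were estimated at 11700000 to 16800000 from the size of 1-read steps among low values. Read counts were not used here, so no counting interval is given for a gene. The 3 wild type libraries at 10 weeks stood apart from the rest, with 1414 to 3176 genes listed at 0 against 4044 to 4423 in the other 12. The keratinocyte markers were abundant in every library, but markers of skeletal muscle, fibroblasts and red cells were too, so the values describe the ear and not purified keratinocytes. Fewer cells of a type and less RNA per cell cannot be told apart in such samples. Socs3 itself measured 9.71 to 10.3 FPKM in the wild type at 2 weeks and 1.25, 9.32, 12.6 and 3.51 FPKM in Socs3 cKO replicates 1 to 4. At 10 weeks it was 2.02 to 4.81 FPKM in the wild type and 29.8 to 47.7 FPKM in Socs3 cKO. The whole-gene level goes against a loss of Socs3 RNA at 10 weeks and in 2 of the mice at 2 weeks; in ear RNA it includes cells without keratin 5 and does not check the deletion, so each direction below rests on the labels.

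At 10 weeks, Nr4a1, Nr4a2, Nr4a3, Egr1, Egr3, Ier3, Ier2 and Egr2 were higher in Socs3 cKO than in the wild type, 8 of the 10 genes. The background was 12.5%, the share of all 13105 genes tested that were called higher. A call required an adjusted p below 0.01 in limma and a log2 difference of at least 1. The lowest Socs3 cKO mouse exceeded the highest wild type mouse for all 10 genes, which held for 31.2% of all genes tested. The median log2 difference of the 10 genes was 3.11, and 2.69 without Nr4a3, beside 0.31 over all genes tested. Egr3, Nr4a2 and Nr4a3 reached the 1 FPKM of the filter in 3 mice only in Socs3 cKO, the group where they were high, so that their tests were conditioned on it; of the other 7 genes 5 were called. At 2 weeks, none was called in either direction and the Socs3 cKO mice differed widely among themselves.

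**Figure D1:**
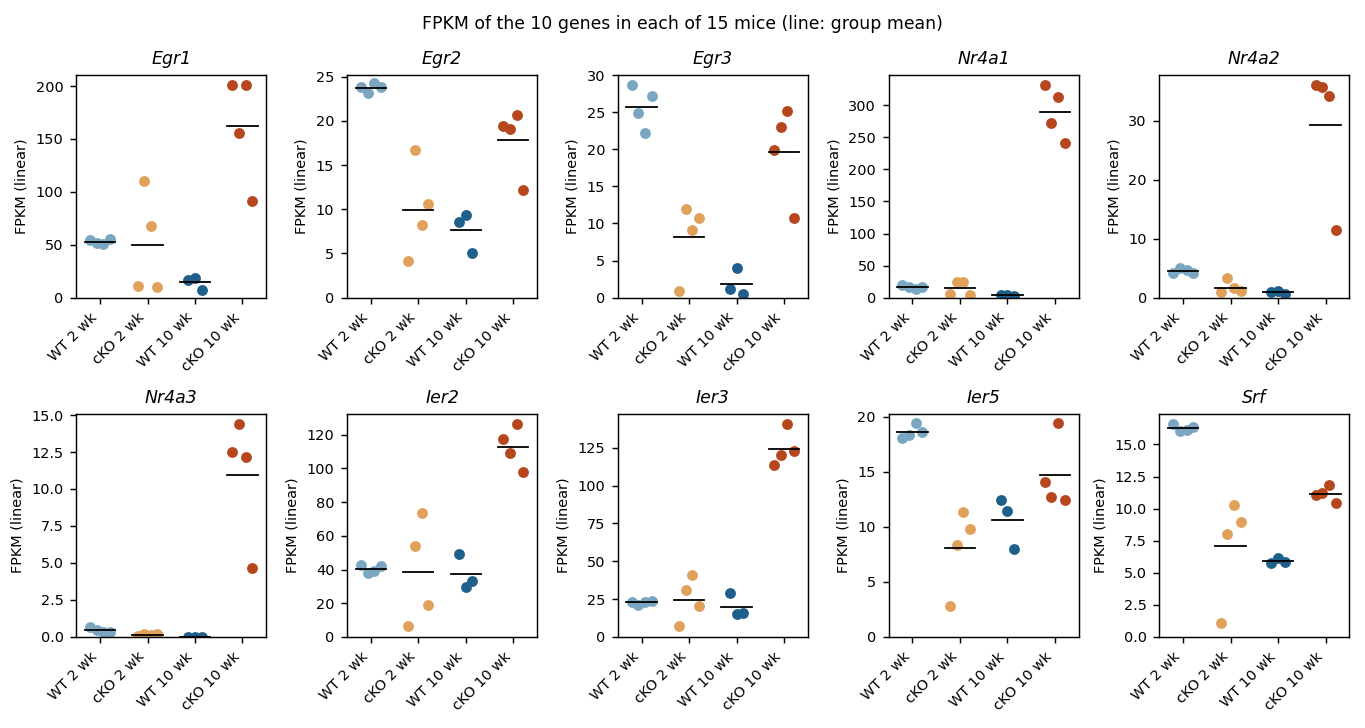
FPKM (linear axis from 0, own scale per gene) of the 10 genes in each of the 15 mice, by genotype (WT, wild type; cKO, Socs3 cKO) and age, 1 point per mouse, with a line at the group mean. The 4 Socs3 cKO mice at 10 weeks lie above the 3 wild type mice of that age in all 10 panels, and the Socs3 cKO mice at 2 weeks spread from 9.99 to 110 FPKM for Egr1.

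The Nr4a receptors had the largest differences of the set at 10 weeks. Nr4a1 measured 4.54, 3.74 and 2.49 FPKM in the wild type mice and 332, 272, 314 and 242 FPKM in the Socs3 cKO mice. The groups were far apart, with a fitted 80.3-fold difference on the log2(FPKM + 0.1) scale (log2 difference 6.33, SE 0.22, limma adjusted p = 3.86e-07, n = 3 and 4). Nr4a2 measured 1.03, 1.08 and 0.63 FPKM in the wild type and 36.0, 35.8, 34.1 and 11.4 FPKM in Socs3 cKO. Its fitted difference was 26.9-fold (log2 difference 4.75, SE 0.40, limma adjusted p = 8.63e-05), and replicate 4 was well below the other Socs3 cKO mice. Nr4a2 reached the filter in 3 mice only in Socs3 cKO, so this p was conditioned on that group. Nr4a3 was listed at 0 in all 3 wild type libraries and measured 12.5, 14.4, 12.1 and 4.66 FPKM in Socs3 cKO. No fold is given for Nr4a3 because of the zeros. It entered the test only through its Socs3 cKO values, so its limma adjusted p of 1.10e-05 is no support for a difference beyond the values themselves. The same 3 wild type libraries listed fewer genes at 0 than any others.

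Among the Egr factors, Egr1 and Egr3 were separated widely at 10 weeks and Egr2 narrowly. Egr1 measured 17.1, 19.0 and 7.13 FPKM in the wild type and 201, 156, 201 and 91.4 FPKM in Socs3 cKO, an 11.6-fold fitted difference (log2 difference 3.54, SE 0.38, limma adjusted p = 0.000292). Egr3 measured 1.15, 4.03 and 0.51 FPKM in the wild type and 19.9, 23.0, 25.2 and 10.7 FPKM in Socs3 cKO. The fitted difference of Egr3 was 12.9-fold (log2 difference 3.69, SE 0.56, limma adjusted p = 0.00155), and its wild type mice spread over 7.95-fold. Egr3 reached the filter in 3 mice only in Socs3 cKO, so this p was conditioned on that group. Egr2 measured 8.55, 9.35 and 5.05 FPKM in the wild type and 19.4, 19.1, 20.7 and 12.2 FPKM in Socs3 cKO. It was called at 2.34-fold (log2 difference 1.23, SE 0.27, limma adjusted p = 0.00697), and this call was not stable. It held in 6 of 17 alternative settings, with a log2 difference of 0.97 and an adjusted p of 0.0102 under median-of-ratios scaling, 0.96 and 0.0268 without wild type replicate 3, and 1.33 and 0.0175 without wild type replicate 1. It was also lost without Socs3 cKO replicate 1, 2 or 3, with log2 differences of 1.18, 1.19 and 1.15 and adjusted p of 0.0203, 0.0197 and 0.0195.

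The Ier genes divided in the same comparison. Ier3 measured 29.0, 15.2 and 15.9 FPKM in the wild type and 114, 120, 141 and 122 FPKM in Socs3 cKO, a 6.44-fold fitted difference (log2 difference 2.69, SE 0.23, limma adjusted p = 9.73e-05). Ier2 measured 49.0, 29.8 and 33.0 FPKM in the wild type and 117, 109, 126 and 97.7 FPKM in Socs3 cKO. Its 3.07-fold difference was called (log2 difference 1.62, SE 0.20, limma adjusted p = 0.000627) in every setting except the fit of all 4 groups together, where the adjusted p was 0.0402. Ier5 measured 12.4, 11.4 and 7.99 FPKM in the wild type and 14.1, 12.7, 19.4 and 12.5 FPKM in Socs3 cKO. The groups of Ier5 nearly touched, and its log2 difference of 0.46 (95% interval -0.04 to 0.97, limma adjusted p = 0.127) was not called.

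Srf differed little in size but evenly between mice. It measured 5.73, 6.11 and 5.83 FPKM in the wild type at 10 weeks and 11.0, 11.2, 11.8 and 10.4 FPKM in Socs3 cKO. The log2 difference was 0.91 (SE 0.16, limma adjusted p = 0.00295), below the size needed for a call, and 0.57 (limma adjusted p = 0.0167) with length and GC trends removed. Egr1, Nr4a1 and Ier3 were called higher in all 17 alternative settings at 10 weeks, and Ier5 and Srf in none. Egr3, Nr4a2 and Nr4a3 were also called in all 17. They reached the main filter in 3 mice only in Socs3 cKO, so their main test was conditioned on the group where they were high.

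**Figure D2:**
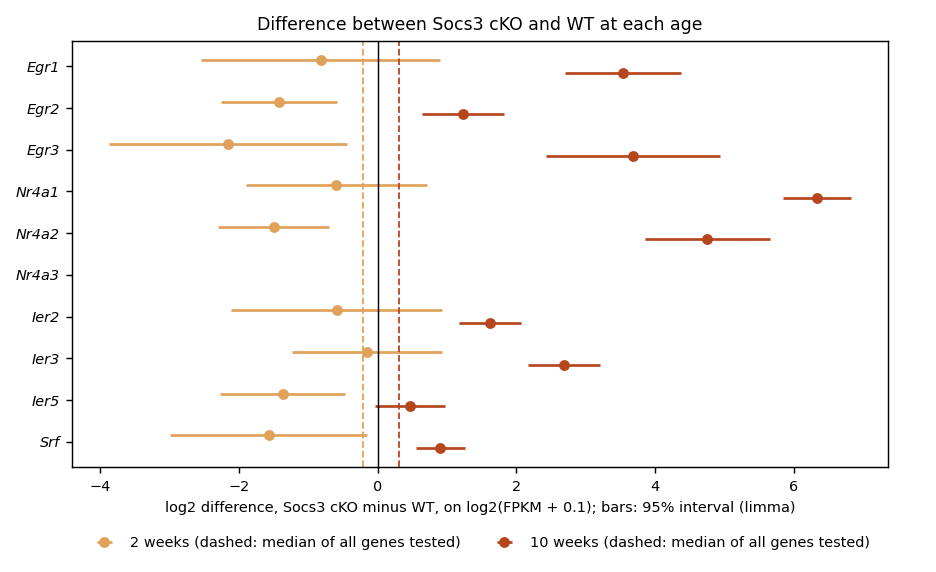
Log2 difference of Socs3 cKO minus wild type (WT) on log2(FPKM + 0.1) for each gene at 2 and 10 weeks, with 95% intervals from limma and dashed lines at the median of all genes tested. Nr4a1 stands at 6.33 and Srf at 0.91 at 10 weeks, and all 9 genes tested at 2 weeks lie at or below -0.15; no point is drawn for Nr4a3, which did not pass the expression filter at 2 weeks and was listed at 0 in the wild type at 10 weeks.

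Levels of several cell type markers differed alongside these values at 10 weeks. The 4 macrophage markers tested were all called higher in Socs3 cKO, with a summed level of 147 to 192 FPKM against 57.8 to 84.7 FPKM in the wild type. The endothelial markers had 3 of 4 called higher, with sums of 30.9 to 40.9 FPKM against 12.7 to 17.5 FPKM. The red cell markers had 2 of 3 called lower, with sums of 430 to 1344 FPKM against 2812 to 4300 FPKM. Skeletal muscle markers had 1 of 6 called lower (354 to 645 FPKM against 698 to 1198 FPKM). Fibroblast markers had 1 of 5 called higher (6131 to 10381 FPKM against 3337 to 6326 FPKM). Of the cartilage markers 1 of 5 tested was called higher, and of the T cell markers 1 of 3. None of the 6 keratinocyte markers was called, with sums of 8004 to 11826 FPKM in Socs3 cKO and 6190 to 10360 FPKM in the wild type. None of the macrophage, endothelial or red cell markers measured was at 0 throughout either group. Neutrophil markers summed to at most 8.95 FPKM in any mouse, with Elane at 0 in every Socs3 cKO mouse at 10 weeks. The part of these cell types in the levels of the immediate-early genes was not tested.

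One mouse set the lower end of the Socs3 cKO group at 10 weeks. Replicate 4 was the lowest of the 4 for 9 of the 10 genes, all but Ier3, and replicate 3 the highest for 6. Replicate 4 also had the highest fibroblast sum of that group (10381 FPKM against 6131 to 7527 FPKM) and the lowest keratinocyte sum (8004 FPKM). Even so, each of the 4 mice was above the wild type mean for all 10 genes, and their median log2 differences from it ran from 2.72 to 3.39. In the wild type at 10 weeks, replicate 3 was the lowest mouse for 6 of the 9 genes above 0 and also had the lowest keratinocyte sum (6190 FPKM). The part of these cell types in the order of the mice was not tested.

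At 2 weeks, no gene of the set was called, against a background of 7.19% of 13524 genes called lower and 7.24% called higher. By limma, 5 of the 9 genes tested had an unadjusted p below 0.05, all lower in Socs3 cKO, as did 58.0% of all genes tested in either direction. The median log2 difference of the 9 genes was -1.37, and that of all genes -0.21. For 5 of the 9 tested, Egr2, Egr3, Nr4a2, Ier5 and Srf, every Socs3 cKO mouse was below every wild type mouse, as for 33.2% of all genes.

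Egr2 measured 23.8, 23.1, 24.2 and 23.8 FPKM in the wild type at 2 weeks and 4.13, 16.7, 8.17 and 10.6 FPKM in Socs3 cKO. The log2 difference was -1.42 (SE 0.37, limma adjusted p = 0.0158). Egr3 measured 28.7, 24.9, 22.2 and 27.1 FPKM in the wild type and 0.83, 12.0, 9.14 and 10.8 FPKM in Socs3 cKO. Its log2 difference of -2.15 (SE 0.75, limma adjusted p = 0.0435) became -1.27 without replicate 1 of Socs3 cKO and was then called. Nr4a2 measured 4.09, 5.02, 4.60 and 4.21 FPKM in the wild type and 0.93, 3.25, 1.56 and 1.08 FPKM in Socs3 cKO. It came closest to a call, with a log2 difference of -1.50 (SE 0.35, limma adjusted p = 0.0114).

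Ier5 and Srf showed the same order of groups. Ier5 measured 18.0, 18.4, 19.4 and 18.7 FPKM in the wild type and 2.78, 8.31, 11.4 and 9.79 FPKM in Socs3 cKO (log2 difference -1.37, SE 0.40, limma adjusted p = 0.0233). Srf measured 16.6, 16.0, 16.1 and 16.3 FPKM in the wild type and 1.12, 8.05, 10.3 and 8.93 FPKM in Socs3 cKO (log2 difference -1.57, SE 0.62, limma adjusted p = 0.0652). Replicate 1 lay far below the other Socs3 cKO mice for Srf, and the difference without it was -0.84. With length and GC trends removed, an alternative chosen after seeing the data, the Srf difference was -0.0066 (SE 0.20, limma adjusted p = 0.98). Those of Egr3 and Ier5 were -1.13 and -0.74 in that setting, and those of Egr2 and Nr4a2 were -0.95 and -1.29. Nr4a3 was low in both groups, at 0.657, 0.464, 0.349 and 0.298 FPKM in the wild type and 0.0399, 0.216, 0.106 and 0.227 FPKM in Socs3 cKO. It did not reach the expression filter and has no limma test at this age.

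Egr1, Nr4a1, Ier2 and Ier3 overlapped between genotypes at 2 weeks because the Socs3 cKO mice lay on both sides of the wild type. Egr1 measured 54.7, 51.3, 50.5 and 55.7 FPKM in the wild type and 10.8, 110, 67.3 and 9.99 FPKM in Socs3 cKO. Nr4a1 measured 19.0, 16.8, 14.1 and 16.4 FPKM in the wild type and 5.55, 23.6, 24.6 and 4.31 FPKM in Socs3 cKO. For both genes, replicates 2 and 3 were above all wild type mice and replicates 1 and 4 below them. Ier2 measured 42.7, 37.9, 38.9 and 42.0 FPKM in the wild type and 6.62, 54.3, 73.7 and 19.1 FPKM in Socs3 cKO, with the same order. Ier3 measured 23.3, 21.0, 23.3 and 23.6 FPKM in the wild type and 7.04, 30.7, 40.6 and 20.3 FPKM in Socs3 cKO. The limma 95% intervals of the log2 difference were wide, at -2.54 to 0.90 for Egr1, -1.89 to 0.71 for Nr4a1, -2.11 to 0.93 for Ier2 and -1.23 to 0.93 for Ier3.

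The median spread of the set was wider between Socs3 cKO mice at 2 weeks than in the other 3 groups; this was not tested. The SD of log2(FPKM + 0.1) had a median over the 10 genes of 1.21 (range 0.58 to 1.78), while the median over all genes was 0.48. In the wild type at 2 weeks the median of the 10 genes was 0.081, beside 0.10 over all genes. It was 0.41 in the wild type at 10 weeks and 0.32 in Socs3 cKO at 10 weeks, beside 0.33 and 0.26 over all genes. Egr1 had the highest SD of the 10 among Socs3 cKO mice at 2 weeks, above 99.0% of all genes tested, with 11.0-fold between the highest and lowest mouse. Srf stood out for its evenness in the other groups, with an SD of 0.023 in the wild type at 2 weeks (below all but 1.86% of genes) and 0.048 and 0.072 at 10 weeks. Without replicate 1 the median SD of the set in Socs3 cKO at 2 weeks was 0.51. The median over all genes without that mouse was not computed, so this value cannot be set beside 0.48.

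**Figure D3:**
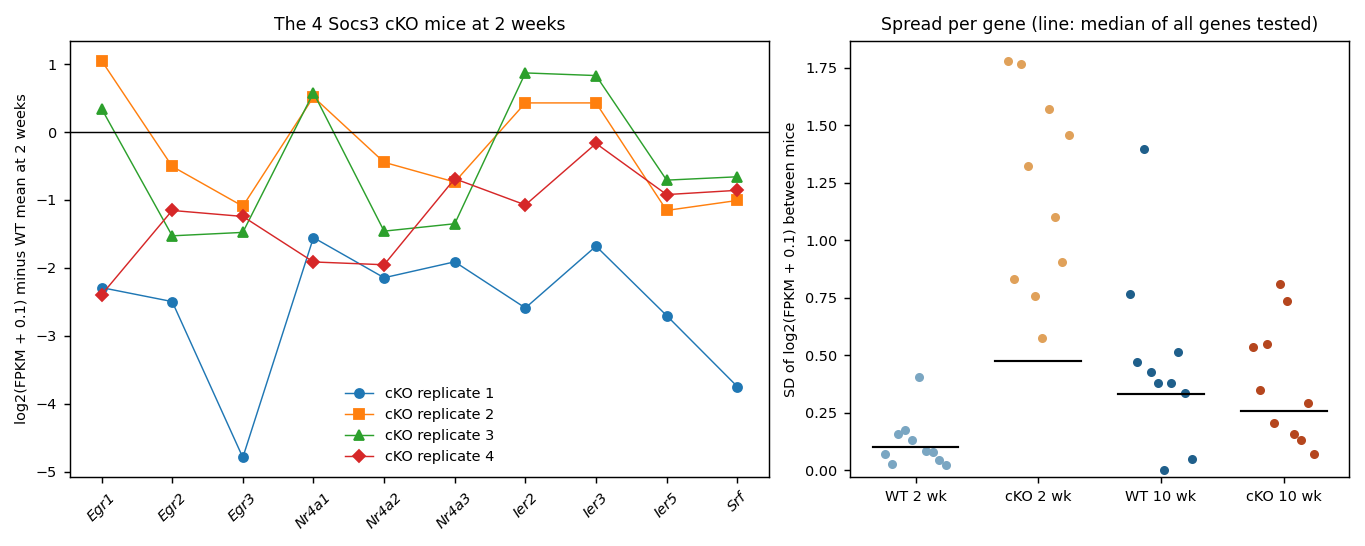
Left, log2(FPKM + 0.1) of each Socs3 cKO (cKO) mouse at 2 weeks minus the wild type (WT) mean of that age, for each gene, 1 line per mouse. Right, SD of log2(FPKM + 0.1) between mice for each of the 10 genes in each group, with a line at the median of all genes tested; replicates 1 and 4 lie below 0 throughout, replicates 2 and 3 lie above 0 for Egr1, Nr4a1, Ier2 and Ier3, and the SDs reach 1.78 in this group.

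Replicate 1 was the lowest Socs3 cKO mouse at 2 weeks for 8 of the 10 genes, and replicate 4 for Egr1 and Nr4a1. Replicates 1 and 4 were below the wild type mean for 9 of 9 genes tested, with medians of -2.49 and -1.15 on the log2 scale. Replicates 2 and 3 were above it for 4 of 9, with medians of -0.45 and -0.66. The library of replicate 1 also differed in general, with a median log2 difference from the wild type of -0.52 over all genes tested, against -0.19 to -0.02 in the other 3. It had the highest muscle sum (2880 FPKM) and red cell sum (4807 FPKM) and the lowest keratinocyte sum (6515 FPKM) of its group. Replicate 4 had the highest keratinocyte sum (12423 FPKM), so the lowest pair of mice held both ends of that range. The part of these markers in the spread was not tested.

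Between genotypes at 2 weeks, all 5 hair follicle markers were called lower in Socs3 cKO, with sums of 6.54 to 54.6 FPKM against 1856 to 2717 FPKM in the wild type. Fibroblast markers had 3 of 5 called lower and 1 called higher, with sums of 4737 to 6676 FPKM against 12360 to 14517 FPKM. Muscle markers had 4 of 6 called higher (1548 to 2880 FPKM against 619 to 942 FPKM), and red cell markers 3 of 3 (1734 to 4807 FPKM against 300 to 348 FPKM). None of these markers was at 0 throughout a group, and their part in the lower Egr2, Egr3, Nr4a2, Ier5 and Srf values was not tested.

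The genotype difference itself differed between the ages for 8 of the 10 genes, in the direction of a higher value at 10 weeks, beside 18.5% of 13937 genes called in that direction. This was tested as an interaction in 1 fit of all 4 groups at an adjusted p below 0.01. That fit shares 1 estimate of the spread per gene between groups, although the Socs3 cKO mice at 2 weeks varied more widely. Its SE and p are therefore approximate, and can be too small where that group enters. Nr4a3 is among the 8 but entered the fit only through the Socs3 cKO mice at 10 weeks. The log2 interaction was 6.92 (SE 0.68, limma adjusted p = 1.44e-05) for Nr4a1 and 6.25 (SE 0.58, limma adjusted p = 1.07e-05) for Nr4a2. It was 5.84 (SE 1.04, limma adjusted p = 0.001) for Egr3 and 4.36 (SE 0.94, limma adjusted p = 0.00286) for Egr1. Ier2 and Srf were not called, with log2 interactions of 2.21 (adjusted p = 0.0309) and 2.47 (adjusted p = 0.0124) by limma. Ier5 was called at 1.83 (limma adjusted p = 0.00901) in the main fit but in 8 of 24 alternative settings. The Egr1 call was lost in 1 setting of 24.

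In the wild type, Egr2, Egr3, Nr4a1, Nr4a2 and Nr4a3 were called lower at 10 than at 2 weeks, 5 of 10 beside 19.4% of all genes. The wild type at 10 weeks is the group whose libraries stood apart. Nr4a3 was below 1 FPKM in both groups and entered this fit only through the Socs3 cKO mice at 10 weeks, and with a pseudocount of 1 its log2 difference was -0.52 (limma adjusted p = 0.0929). Egr3 and Nr4a2 reached the filter in 3 mice only at 2 weeks, and of the other 7 genes 2 were called. The log2 differences were -1.67 for Egr2, -4.13 for Egr3, -2.21 for Nr4a1 and -2.20 for Nr4a2, with limma adjusted p of 0.00191, 0.000701, 0.00255 and 0.000933. These p come from the fit of all 4 groups, so they also include the wider spread of the Socs3 cKO mice at 2 weeks. Without wild type replicate 3 at 10 weeks, or with length and GC trends removed, 3 genes were called. The groups did not overlap for 8 genes, all but Ier2 and Ier3, beside 49.5% of all genes lower without overlap, and the median over all genes was -0.44. Egr3 went from the third highest of the set at 2 weeks to the eighth at 10 weeks in the wild type.

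In Socs3 cKO, Nr4a1, Nr4a2, Nr4a3 and Ier3 were called higher at 10 than at 2 weeks, 4 of 10 beside 2.01% of all genes. Nr4a3 entered the test only through its values at 10 weeks, and of the other 9 genes 3 were called. The log2 differences were 4.71 (SE 0.46) for Nr4a1, 4.05 (SE 0.39) for Nr4a2 and 2.58 (SE 0.39) for Ier3, with limma adjusted p of 1.89e-05, 1.86e-05 and 0.000829. The groups did not overlap for 7 genes, all but Egr1, Egr2 and Egr3, beside 7.71% of all genes. This comparison and the 10-week comparison share the Socs3 cKO mice at 10 weeks, so their values are not independent of each other.

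Placed beside the wild type mice at 2 weeks, which differ in both age and genotype and were not tested against them, the Socs3 cKO mice at 10 weeks divided the set. All 4 exceeded every 2-week wild type mouse for Egr1, Nr4a1, Nr4a2, Nr4a3, Ier2 and Ier3. All 4 were below every one of them for Egr2 and Srf, and Egr3 and Ier5 overlapped. The share of all genes that lay apart between these groups was not computed, so the positions are a description only.

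The order of levels within the set differed between groups. In the wild type at 2 weeks Egr1 was highest at 53.0 ± 2.55 FPKM (SD, n = 4), followed by Ier2 at 40.4 ± 2.33 FPKM, and their ranges did not overlap. Egr3, Egr2 and Ier3 followed at 25.7 ± 2.81, 23.7 ± 0.45 and 22.8 ± 1.23 FPKM, each overlapping its neighbour. Ier5, Nr4a1 and Srf formed the next overlapping run at 18.6 ± 0.59, 16.6 ± 2.01 and 16.3 ± 0.26 FPKM, and Nr4a2 (4.48 ± 0.42 FPKM) and Nr4a3 (0.44 ± 0.16 FPKM) were lowest. In the wild type at 10 weeks Ier2 led at 37.3 ± 10.3 FPKM (SD, n = 3) without overlap, before Ier3 at 20.0 ± 7.75 FPKM and Egr1 at 14.4 ± 6.36 FPKM, whose ranges overlapped. In Socs3 cKO at 10 weeks Nr4a1 led at 289.7 ± 40.6 FPKM (SD, n = 4) without overlap. Egr1, Ier3 and Ier2 followed at 162 ± 51.9, 124 ± 11.6 and 113 ± 12.2 FPKM, with overlapping neighbours, and Nr4a2 came next at 29.3 ± 12.0 FPKM. In Socs3 cKO at 2 weeks only Nr4a2 and Nr4a3, the lowest pair, did not overlap.

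Ratios of FPKM values within a library do not depend on a scaling factor common to all its genes, and 8 such ratios were computed at each age. Quantile normalization and removal of length and GC trends can change them. The permutation tests of the ratios used differences of log2(FPKM + 0.1). At 2 weeks, Nr4a1 over Egr1 was 0.312 ± 0.031 for the wild type and 0.382 ± 0.127 for Socs3 cKO, and at 10 weeks 0.270 ± 0.076 and 1.90 ± 0.50 (SD). Nr4a1 was more abundant than Egr1 in 4 of 4 Socs3 cKO mice at 10 weeks, the lowest ratio being 1.56, and less abundant in every other mouse. Egr1 over Egr2 was 1.81 ± 0.35 for the wild type and 8.94 ± 1.34 for Socs3 cKO at 10 weeks. Egr2 over Egr3 went the other way, from 6.57 ± 3.89 in the wild type to 0.940 ± 0.147 in Socs3 cKO, close to the 0.932 ± 0.113 of the wild type at 2 weeks. Ier3 over Ier2 was 0.528 ± 0.056 and 1.11 ± 0.12. Nr4a1 over Srf was 0.610 ± 0.183 and 26.0 ± 3.05, and Egr1 over Srf 2.44 ± 1.05 and 14.5 ± 4.23. For each of the 8 ratios at 10 weeks the exact permutation p was 0.0571 (2-sided), the smallest that 3 against 4 mice allow, so none could pass 0.05. At 2 weeks the exact permutation p ran from 0.0857 for Nr4a1 over Nr4a2 to 0.4571.

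**Figure D4:**
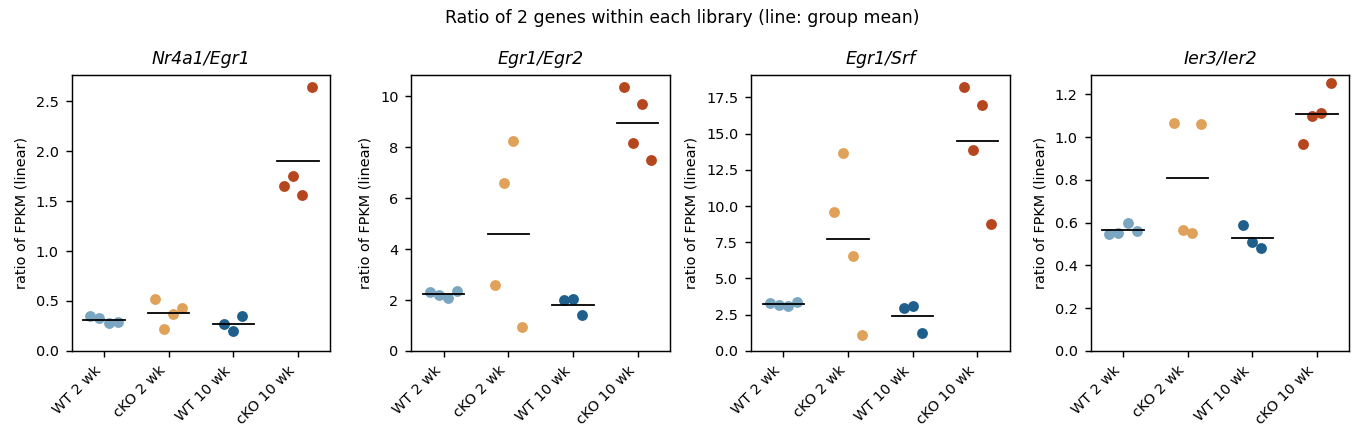
Ratio of the FPKM of a pair of genes within each library (linear axis from 0, own scale per panel) for the wild type (WT) and Socs3 cKO (cKO) mice at 2 and 10 weeks, 1 point per mouse, with a line at the group mean. In Socs3 cKO at 10 weeks Nr4a1 over Egr1 is 1.56 to 2.64, above every other mouse, and Ier3 over Ier2 lies above both wild type groups.

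Within the Egr family, Egr1 made up 51.7% ± 0.54 of the summed Egr1, Egr2 and Egr3 FPKM in the wild type at 2 weeks and 59.5% ± 3.88 at 10 weeks (SD). In Socs3 cKO its share was 64.8% ± 22.6 at 2 weeks, with a range from 31.8% to 79.5%, and 80.9% ± 2.12 at 10 weeks. Egr2 held 33.5% ± 5.63 for the wild type and 9.18% ± 1.19 for Socs3 cKO at 10 weeks. Nr4a1 was the main Nr4a transcript in every group, with mean shares of 77.0% to 88.1%. Nr4a3 reached a mean of 3.23% ± 1.09 of the Nr4a sum in Socs3 cKO at 10 weeks.

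Other immediate-early genes were higher too at 10 weeks. Of 20 such genes outside the set, 18 were called higher and none lower, with a median log2 difference of 2.97, beside 12.5% of all genes called higher and a median of 0.31. The largest called differences were those of Fosb (log2 difference 5.85, SE 0.49), Fos (5.22, SE 0.57), Atf3 (4.65, SE 0.25) and Cyr61 (4.59, SE 0.23), with limma adjusted p from 5.72e-06 to 0.000318. Fosb and Fos encode AP-1 subunits, Atf3 a stress-induced bZIP factor and Cyr61 a secreted matrix protein. At 2 weeks 1 of the 20 was called, Arc, an activity-regulated gene best known in neurons (log2 difference -2.08, SE 0.34, limma adjusted p = 0.00278). Arc measured 2.74 ± 0.35 FPKM in the wild type and 0.62 ± 0.29 FPKM in Socs3 cKO at that age (SD, n = 4 each).

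No close relative or partner of the set was called between genotypes at either age, although some differed at 2 weeks. Of Egr4, Ier5l, the corepressors Nab1 and Nab2 and the retinoid X receptors Rxra, Rxrb and Rxrg, which pair with Nr4a1 and Nr4a2, 6 were tested and none was called at either age, with a median log2 difference of 0.48 at 10 weeks and -1.13 at 2 weeks. At 2 weeks Rxrg passed by limma adjusted p (0.00992) but not by size (-0.78), and Nab2 was at -2.21 (limma adjusted p = 0.0138). In the interaction 1 of the 6 was called, Nab2 (log2 interaction 2.93, limma adjusted p = 0.00332), beside 18.5% of all genes. Of the SRF cofactors 5 of 6 were tested and 2 called higher at 10 weeks. For this list and those below, the background at 10 weeks is again 12.5% called higher and a median log2 difference of 0.31, and at 2 weeks 7.24% called higher, 7.19% lower and a median of -0.21. Those called were the ternary complex factors Elk4 (log2 difference 2.62, SE 0.40, limma adjusted p = 0.00155) and Elk1 (2.01-fold, SE 0.21 on the log2 scale, limma adjusted p = 0.0061), and the median of the 5 was 0.34. None of the 5 was called at 2 weeks.

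Targets listed for these factors were called less evenly. Of the actin-class SRF targets 3 of 8 tested were higher at 10 weeks, the cytoplasmic actins Actg1 (log2 difference 1.97, SE 0.27) and Actb (1.34, SE 0.25) and the adhesion protein gene Vcl (1.31, SE 0.21), with a median of 0.56. At 2 weeks 1 of 9 was called, the smooth muscle actin Actg2 (log2 difference -1.35, SE 0.18, limma adjusted p = 0.00118). Of 7 genes described as EGR1 targets 3 were called higher at 10 weeks, with a median log2 difference of 0.88. They were the adhesion receptor Icam1 (log2 difference 3.85, SE 0.34), the matrix protein Thbs1 (1.91, SE 0.30) and the hyaluronan receptor Cd44 (1.28, SE 0.24). At 2 weeks the same list had F3, which encodes tissue factor, called higher (log2 difference 1.70, SE 0.14, limma adjusted p = 0.00012) and the angiogenic factor Vegfa called lower (-1.85, SE 0.38, limma adjusted p = 0.00688).

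Genes of the upstream kinases were mostly not called. Of 9 tested at 10 weeks only the receptor gene Egfr was higher (log2 difference 1.70, SE 0.25, limma adjusted p = 0.00122), with a median of 0.27. At 2 weeks Mapk7, which encodes ERK5, was lower (log2 difference -2.23, SE 0.50, limma adjusted p = 0.00988), at 3.46 ± 1.81 FPKM in Socs3 cKO and 13.9 ± 1.30 FPKM in the wild type (SD, n = 4 each).

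The genes whose pattern over the 15 mice was most like the mean of the set were searched among 13927 others, as the root mean square difference of mean-centred log2(FPKM + 0.1). The nearest was Itpkc, an inositol trisphosphate kinase gene, at 0.24. It measured 22.8 ± 1.82 and 11.2 ± 6.43 FPKM for wild type and cKO mice at 2 weeks, and 8.04 ± 2.11 and 63.9 ± 22.4 FPKM at 10 weeks (SD). Nod2 (0.32), Sik1 (0.33), Socs3 (0.34), Slc25a25 (0.35), Maff (0.37), Per1 (0.38) and Btg2 (0.41) followed, of which Maff, Per1 and Btg2 were also in the list of other immediate-early genes. The likeness is dominated by the difference between groups and is given as a description. Searched gene by gene, the nearest was Socs3 for Egr1 (0.52), Maml1 for Egr2 (0.13), Mef2d for Egr3 (0.33), Arc for Nr4a2 (0.61), Pim3 for Ier2 (0.39), Gadd45b for Ier3 (0.35), Mtap7d1 for Ier5 (0.20) and Slc7a5 for Srf (0.15). Tnfaip3, an inhibitor of NF-kappaB signalling, was the nearest to both Nr4a1 (0.62) and Nr4a3 (0.74). Tnfaip3 measured 5.53 ± 0.72 and 5.13 ± 1.79 FPKM for wild type and cKO mice at 2 weeks and 2.15 ± 1.08 and 86.1 ± 21.9 FPKM at 10 weeks (SD).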

How the data were processed

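RNA-Seq of ear total RNA was analysed in 15 libraries of 1 mouse each, grouped by genotype and age as labelled. The authors mapped 50-base single reads to the mm9 assembly and deposited 1 FPKM value per gene and library; the submitters' processing notes name TopHat2 2.1.0 and Cufflinks, and the annotation version is not given in the sources used here. The paper states more wild type mice, and these were not analysed here.

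Values were analysed as log2(FPKM + 0.1). limma 3.58.1 (R 4.3.3) with a variance trend was fitted to genes that reached 1 FPKM in 3 or more samples of the fit, separately at 2 and 10 weeks, and on all 4 groups for the interaction and the age contrasts. Tests were 2-sided with Benjamini-Hochberg adjustment over all genes tested. Calls required an adjusted p below 0.01 and, except for the interaction, a log2 difference of at least 1. The study tested counts with edgeR, which FPKM values do not allow. Exact permutation tests over mice used scipy 1.17.1. On simulated data at 10 weeks, 82 of 100 genes changed by log2 2 and 97 of 100 changed by log2 4 were recovered, and at 2 weeks 70 and 94 of 100. Of the unchanged genes, 4 were called at 10 weeks and 10 at 2 weeks. Each gene was simulated independently, without library-wide shifts, mice that deviate over many genes, or batches. These counts therefore do not carry over to the real libraries. Changes were planted only in genes with a mean above 2 FPKM in the wild type. Egr3, Nr4a2 and Nr4a3 were below that at 10 weeks, so these rates do not cover them. Fold changes on this scale understate those of low genes.

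The 10 genes and the lists were chosen with earlier results of these data known. From the EGR1 target list 1 gene is not reported here. All 10 are described. From each list, up to 4 called genes with the largest difference at 10 weeks and up to 2 at 2 weeks are named. The values of Rxrg and Nab2 are given outside this rule. The genes most alike are the 8 nearest to the mean of the set and the nearest to each gene. Replicate libraries were checked for duplicates, and any pair had at most 1 identical value other than 0. Alternatives were other pseudocounts (1 and 0.01), filters, scalings, variance priors, a replicate block, 1 fit for all groups, each library left out, and removal of length and GC trends, the last chosen after seeing the data. Same-numbered mice did not deviate together, so the numbers were not taken as pairs.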

Additional observations from a re-analysis of the deposited data

Results flagged for a closer look

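The genotype difference at 10 weeks minus that at 2 weeks, tested as an interaction in limma over all 4 groups, passed the threshold for 8 genes. Over all 13937 genes tested, 18.5% were called in the same direction. On the log2 scale the interaction was 4.36 for Egr1, 2.65 for Egr2, 5.84 for Egr3, 6.92 for Nr4a1, 6.25 for Nr4a2, 2.83 for Ier3 and 1.83 for Ier5. The Ier5 call held in 8 of 24 alternative settings. For Nr4a3 the fitted value was 7.84, which depends on the pseudocount because the wild type at 10 weeks was listed at 0.

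A single mouse lay far from the others of its group in 6 of 30 gene and group combinations of 4 mice. The rule was a ratio of gap to range above Dixon's 95% critical value. Genes measured in the same mouse are not independent, and the share of all genes flagged was not computed, so the count is a description. In Socs3 cKO at 10 weeks the mouse flagged was replicate 4, the lowest, for Nr4a2 (0.952), Nr4a3 (0.85) and Egr2 (0.845). In Socs3 cKO at 2 weeks it was replicate 1, the lowest, for Egr3 (0.896) and Srf (0.887). In the wild type at 2 weeks it was replicate 2 for Ier3 (0.906), at 21.0 FPKM beside 23.3 to 23.6 FPKM.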

How the results depend on the processing

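At 10 weeks, 7 to 8 genes of the set were called higher in every leave-one-out fit, and the call lost in each fit with 7 was that of Egr2. Over all genes, 745 to 2665 were called with 1 library left out, the lowest without wild type replicate 3, against 1957 in the fit of all 7, and 1276 with length and GC trends removed. Genes called higher and lower numbered 1638 and 319 as deposited, 1067 and 643 under median-of-ratios scaling, 908 and 785 under quantile normalization and 753 and 523 with length and GC trends removed. The median of all genes moved from 0.31 to between -0.08 and 0.05 under these scalings.

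At 2 weeks, 0 genes of the set were called lower by limma, but 1 with a pseudocount of 1, 2 under quantile normalization, 1 with length and GC trends removed and 3 with all 4 groups in one fit, drawn from Egr2, Nr4a2 and Ier5. Leaving out 1 library gave 0 to 3, with 3 without Socs3 cKO replicate 1 and 2 without replicate 2. All genes called numbered 1951, 3300 with all 4 groups in one fit and 859 to 3348 with 1 library left out. The uncalled differences changed sign for Nr4a1 (0.35) and Ier2 (0.37) with length and GC trends removed and for Ier3 under median-of-ratios scaling (0.058) and quantile normalization (0.051). With trends removed, Srf went from -1.57 to -0.0066 and Egr1 from -0.82 to -0.10. With 1 library left out, Ier2 ran from -1.08 to 0.075 and Ier3 from -0.47 to 0.36, positive only without Socs3 cKO replicate 1.

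For the interaction, 6 to 10 genes of the set and 1994 to 5117 of all genes were called with 1 library left out. For age in the wild type, 3 genes of the set were called lower with length and GC trends removed, and 3 to 6 with 1 library left out; all genes called numbered 2322 and 2205 to 4519, against 3559. There the uncalled Ier2 became positive under median-of-ratios scaling (0.24) and with trends removed (0.29), and Ier3 under median-of-ratios scaling (0.14) and quantile normalization (0.094). For age in Socs3 cKO, 4 to 6 of the set and 300 to 700 of all genes were called with 1 library left out. The median SD of the set in Socs3 cKO at 2 weeks ran from 0.51 to 1.31. The causes of these changes were not tested.

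The replicate numbers do not pair the mice: deviations of same-numbered mice correlated at -0.041 to 0.135 at 2 weeks and -0.209 to 0.068 at 10 weeks. With the replicate number as a block, 0 genes of the set were called at 2 weeks and 8 at 10 weeks, and 751 of all genes at 2 weeks. The limits are 3 wild type mice at 10 weeks, whose libraries stood apart, a batch that cannot be told apart from the group, and no read counts.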
